A study of Homo sapiens with 28 samples.

Results

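HuH7, a human line grown from a hepatocellular carcinoma, was compared as 4 tumours on the chick chorioallantoic membrane (in ovo) with 3 plain cultures (in vitro). These 7 of the 28 libraries of the series are the columns labelled HuH7, and no measured value chose them. The other 21 libraries come from HepG2, Hep3B and PLC/PRF/5, with 3 cultures and 4 tumours each. Cells were grafted on eggs of the white leghorn chicken at embryonic day 9 and tumours were taken at day 18, after 9 days. The labels name no drug, transgene or genotype for any group, and do not say whether cultures or tumours of 1 group came from separate flasks or eggs, and the spread behind each p-value is thus that of libraries and may be technical. RNA of cultures and of tumours was purified with different sizes of column kit, and the codes that open the column names also differ between the 2 conditions, so kit, code and condition cannot be told apart. Each library was made from 500 ng of RNA with a targeted kit that reads 1 human amplicon per gene.

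The chorioallantoic membrane is the vascular respiratory membrane of the chick embryo, on which human tumour cells form nodules supplied by chick vessels. Hepatocytes, and liver tumour cells that resemble them, secrete most plasma proteins and make cholesterol and fatty acids. Sterol synthesis is switched on by SREBP transcription factors when sterol in the endoplasmic reticulum is low, and cells in different media or tissues differ in how much lipid they take up. Nodal and Notch are signalling routes of the early embryo, and Notch is also a route of biliary differentiation. Both induce their own inhibitors or targets, which are often read as outputs of the routes, although the activity of neither route was measured here.

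The 3 cultures held between 7420276 and 8277293 reads, and the 4 tumours between 7644164 and 8592746. Levels are given as CPM, the reads of a gene scaled to a fixed library total, after TMM, a scaling that offsets differences in library composition. 3 reads, taken as the floor of detection in 1 library, were 0.300 to 0.327 CPM in cultures and 0.255 to 0.515 CPM in tumours, a limit that covers counting error only. Levels of different genes are not compared with each other, because each gene has its own amplicon. Fold changes come from limma on log2(CPM + 1), so that changes of low genes are understated. Calls were made below an adjusted p of 0.05 (limma, Benjamini-Hochberg over 13100 genes tested of 18961), and the words rose and fell are used for called genes only.

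The line label held in all 4 tumours. Their mean correlation with HuH7 cultures over genes was 0.913, 0.923, 0.819 and 0.94, against 0.81, 0.82, 0.734 and 0.833 with Hep3B cultures, the nearest of the other lines' cultures. Transcripts typical of HepG2 (9 genes at 50 CPM or more in every HepG2 library and at most 1 CPM in other cultures) stood in HuH7 tumours at 0 to 0.11% of their level in HepG2 tumours, and in HuH7 cultures at 0.0444 to 0.123%. Those typical of Hep3B by the same rule (2 genes) stood higher in HuH7 tumours, at 0.182 to 0.343%, than in HuH7 cultures, at 0.00826 to 0.0276%. Those typical of PLC/PRF/5 (14 genes) were at 0.026 to 0.211% in HuH7 tumours and at 0 in HuH7 cultures. Tumour 3 stood apart. Its correlation with the other HuH7 tumours and with the cultures was the lowest of the 4. Some results that rest on it are given with and without it, and others only with its level. Fold changes went with the GC content of the amplicon (Spearman 0.506 across genes, which are not independent replicates and share libraries) and against its length (-0.341). They also differed with its place. Of 5206 amplicons within 1 exon 31.8% rose and 10.6% fell, with a median log2 change of 0.27, whereas of 7825 amplicons across exons 18.6% rose and 25.6% fell, with a median of -0.15. Of 391 olfactory receptor amplicons, whose genes the liver does not need, 6.57% ± 1.03 (SD, n = 3) had a read in cultures and 26.0% ± 4.32 (n = 4) in tumours and their 95th percentile was at most 0.944 CPM in any tumour. Their highest amplicon was at 4.80 to 5.45 CPM in cultures and 10.3 to 33.8 CPM in tumours. Of the 12 that were tested, all within 1 exon, 8 rose and none fell (66.7%, median 0.94), against 23.9% of all genes that rose. The part of GC content, exon place and stray reads in the results was not tested, and their values are given beside some of the groups they touch.

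Lists of markers of other cell types moved in different ways, beside 23.9% of all genes that rose and 19.5% that fell. Of 12 biliary markers tested 5 rose and 1 fell (median 0.45), SCTR and SOX9 (1.28 ± 0.36) among those that rose. The list of 14 summed to 4457 to 4692 CPM in cultures and to 5224 to 7257 CPM in tumours, higher in each, while KRT7 and CFTR were at or under 3 reads. Of 10 intestinal and mucosal markers tested 4 rose and 1 fell (2 and 2 with total counts alone), and the list summed to 402 to 426 CPM and 251 to 422 CPM. Of 6 neuroendocrine markers tested 2 rose and 1 fell, with a sum of 1077 to 1133 CPM and 108 to 467 CPM, and of 4 stratified epithelium markers none rose and 2 fell, with a sum of 90.8 to 96.7 CPM and 36.5 to 74.3 CPM. Of 10 endothelial markers 7 were at or under 3 reads in all 7 libraries (CDH5, KDR, TEK, TIE1, EMCN, ERG and CLDN5), and their summed level was 23.5 to 25.2 CPM in cultures and 9.70 to 28 CPM in tumours. The fibroblast markers DCN, POSTN, DPT, THY1 and ACTA2 were at or under 3 reads throughout, and the list of 11 summed to 349 to 368 CPM in cultures and 553 to 862 CPM in tumours, mostly PDGFRA. Of its 7 tested members COL1A1, COL1A2 and PDGFRA rose and LUM fell (median 0.03). Leukocyte markers summed to 38.3 to 43.3 CPM and 8.4 to 14.2 CPM, with CD3E, ITGAM and TYROBP among the 4 at or under 3 reads. CD14 alone was at 34.4 to 38.7 CPM in cultures and 4.29 to 7.51 CPM in tumours. The 6 erythroid markers summed to 6.86 to 10.1 CPM and 13.4 to 30.9 CPM, mostly TAL1, with 5 of 6 at or under 3 reads. The part of these cell types in the results was not tested. All 12 hepatocyte markers were read in both conditions, and their sum was 17260 to 17820 CPM in cultures and 5432 to 8655 CPM in tumours. In such bulk RNA, fewer cells of a type and less RNA per cell cannot be told apart.

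In all, 3133 of the 13100 genes rose in HuH7 tumours (23.9%) and 2554 fell (19.5%), with a median log2 change over all genes of 0.02. At least 2-fold changes on the fitted scale numbered 1935 and 1507, or 1685 and 874 without tumour 3. Scaling by total counts alone shifted the median of all genes to -0.13, and then 2528 rose and 3038 fell, 1480 and 2053 of them at least 2-fold. Without tumour 3 the counts were 2734 and 1717, and with HuH7 libraries fitted alone, on 5 residual degrees of freedom, 2052 and 1680. Every list below is read against the shares of 23.9% and 19.5%.

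The amplicons of 3 genes with very large changes are shown as examples of amplicons within 1 exon and across exons. They do not stand for all rises and falls. DNM1 and NOTCH3, named below, rose with amplicons across exons, and AHSG and LUM fell with amplicons within 1 exon. Coordinates are GRCh38, from an exact match to GENCODE 29 transcripts. The amplicons of CER1 (chr9:14720120-14720263, exon 2) and NPNT (chr4:105967208-105967336, exon 11) lie within 1 coding exon. That of NQO1 (chr16:69713079-69718156, exons 3 to 5) crosses exon junctions in the coding sequence, and capitals mark the bases on both sides of each junction.
CER1: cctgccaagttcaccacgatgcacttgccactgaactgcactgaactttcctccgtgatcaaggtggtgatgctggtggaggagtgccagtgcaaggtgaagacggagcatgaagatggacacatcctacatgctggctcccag
NPNT: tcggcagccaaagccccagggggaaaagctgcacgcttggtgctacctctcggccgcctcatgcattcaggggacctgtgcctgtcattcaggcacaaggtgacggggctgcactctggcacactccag
NQO1: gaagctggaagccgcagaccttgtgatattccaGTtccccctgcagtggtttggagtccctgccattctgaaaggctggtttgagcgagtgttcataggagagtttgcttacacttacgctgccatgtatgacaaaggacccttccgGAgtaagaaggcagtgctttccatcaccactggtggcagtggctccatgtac

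Antagonists of Nodal, a TGF-beta family ligand, were among the genes that rose most. CER1 encodes Cerberus, a secreted protein that binds Nodal and BMP ligands. It was at 0.300, 0.217 and 0.327 CPM in the cultures and at 69.1, 142, 80.5 and 89.7 CPM in the tumours. All 4 tumours were high and no library overlapped. Its log2 fold change was 6.18 ± 0.31 (SE; adjusted p = 2.81e-13, limma). The cultures held 8 reads in all against 3380 in the tumours, a ratio of 346 per unit of scaled depth with a counting interval of 175 to 802 (exact conditional, 95%). LEFTY1 and LEFTY2 encode secreted antagonists that block the Nodal receptor complex. They are near-identical copies, so their reads could be exchanged and their separate levels are uncertain. LEFTY1 was at 3.30, 2.93 and 3.05 CPM in cultures and 209.7, 341, 325 and 162 CPM in tumours. LEFTY2 had 1 read in each culture and 29.3, 57, 24.9 and 32.0 CPM in the tumours. Both were thus near the floor in every culture and high in every tumour, with log2 fold changes of 5.93 ± 0.41 (adjusted p = 5.46e-11) and 4.98 ± 0.31 (adjusted p = 8.13e-12, limma).

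Of the 15 genes of the Nodal list that were tested, 8 rose and 2 fell, with a median of 0.60 against 0.02 over all genes. NODAL itself had no read in any HuH7 library, and the coreceptor gene TDGF1 was at or under 1 read in each. Among receptors and transducers, ACVR2B, a type II activin receptor, went from 62.9 to 67.3 CPM in cultures to 166 to 349.8 CPM in tumours (log2 fold change 1.85 ± 0.28). SMAD3, the transcription factor that carries the signal to the nucleus, went from 124 to 135 CPM to 262 to 404 CPM (1.42 ± 0.25), while SMAD2, its partner, fell by 0.35 (adjusted p = 0.0473), a call that was lost with GC and length trends removed (-0.04). The SMAD2 call was also lost with edgeR (adjusted p = 0.0636), with DESeq2 size factors and with a replicate block. It was lost as well with HuH7 libraries alone (adjusted p = 0.104, limma), without any 1 culture (adjusted p = 0.0595 to 0.165, limma), and without tumour 2 or tumour 4. The 8 amplicons of this list within 1 exon had a median of 0.86 and 5 called higher, and the 6 across exons a median of -0.20 and 2 called higher.

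Notch receptors and several Notch target genes rose. NOTCH3 was at 7.40, 7.60 and 6.75 CPM in cultures and 170.1, 242, 93.2 and 141 CPM in tumours (log2 fold change 4.22 ± 0.46, adjusted p = 1.07e-07, limma). NOTCH1 was at 130.4, 136 and 138 CPM in cultures and 847, 691, 1097 and 433 CPM in tumours (2.42 ± 0.30, adjusted p = 9.13e-07). Both receptors were higher in every tumour than in any culture. NOTCH2 rose by 1.18 ± 0.29, but tumour 3, at 202 CPM, lay close to the cultures at 189 to 190.5 CPM. Of the ligands, DLL4 rose by 1.47 ± 0.26 and JAG1 fell by 0.80 ± 0.29 with tumour 1, at 3951 CPM, above the cultures at 3817 to 3902 CPM. Without tumour 3 JAG1 was not called (-0.55, adjusted p = 0.123, limma). Its call was also lost with edgeR (adjusted p = 0.0591) and with HuH7 libraries alone (adjusted p = 0.107, limma). It was lost as well without tumour 2 or any 1 culture (adjusted p = 0.057 to 0.0691, limma). JAG2 was not called, at 0.02.

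Among Notch targets, HES4, a transcriptional repressor, stood at 3.58 to 4.2 CPM in cultures and at 30.5, 19.6, 49.8 and 18.2 CPM in tumours (2.52 ± 0.26, adjusted p = 6.13e-08). NRARP, a feedback inhibitor of the pathway, was at 3.26 to 4.25 CPM in cultures and 12.6, 10.8, 76.4 and 7.92 CPM in tumours. With HuH7 libraries alone NRARP was not called (1.95, adjusted p = 0.0613, limma). HES1, the best known target, was not called: it was at 91.2 to 92.0 CPM in cultures and 104, 132 and 101 CPM in tumours 1, 2 and 4, and only tumour 3, at 672 CPM, was far above. It was called without tumour 4 (1.20, adjusted p = 0.0465, limma). In the whole Notch list 8 of 12 genes rose and 1 fell, with a median of 1.26. Its amplicons are rich in GC (median 63.7% against 55.6% over all genes), and 6 rose and 1 fell once trends with GC content and length were removed. Without tumour 3, 8 rose and none fell. With all 4 tumours, its amplicons across exons (7) and within 1 exon (5) had medians of 1.18 and 1.34.

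Growth factor genes moved in both directions, with 10 of 23 higher and 6 lower (median 0.10, and -0.18 with total counts alone). PDGFA, a platelet-derived growth factor that acts on mesenchymal cells, was at 38.8, 39.2 and 46.2 CPM in cultures and 306, 347, 951 and 176 CPM in tumours (3.12 ± 0.40, adjusted p = 1.36e-06, limma). VEGFA, the endothelial growth factor, went from 193 to 204 CPM to 329.5 to 1474 CPM (1.78 ± 0.39). In both, each tumour was above each culture and tumour 3 was the highest. PTHLH, the parathyroid hormone-like peptide of tumour hypercalcaemia, had 1 or 2 reads per culture and 25.5, 32.5, 21.1 and 23.2 CPM in the tumours. IGF2, a fetal growth factor, was at 31410, 26120 and 18540 CPM in tumours 1, 2 and 4, but at 4390 CPM in tumour 3, below the cultures at 5013 to 5445 CPM. It was called higher, at 1.62 ± 0.54 (adjusted p = 0.0187), but not without tumour 1 (1.30, adjusted p = 0.0686) or tumour 2 (1.39, adjusted p = 0.055, limma). The call of IGF2 was also lost with total counts alone (1.35, adjusted p = 0.0609) and with HuH7 libraries alone (1.54, adjusted p = 0.111). It was lost as well with GC and length trends removed (1.11, adjusted p = 0.1) and without culture 3 (1.59, adjusted p = 0.0538, limma). IGFBP3, a binding protein of that factor, fell by 2.13 ± 0.34, from 258 to 269.8 CPM to 22.3 to 104 CPM.

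**Figure D1:**
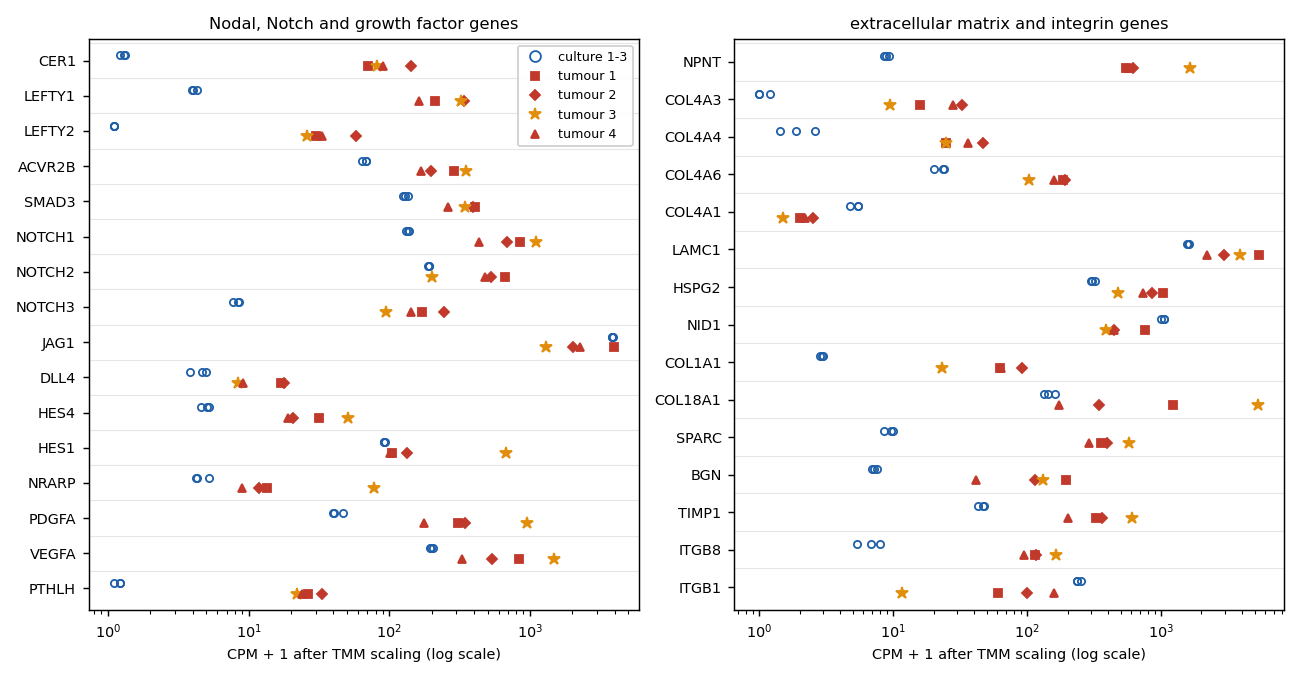
Level of each gene in every HuH7 library, as CPM + 1 after TMM scaling on a log axis. Open circles are the 3 cultures, filled symbols the 4 tumours, and the star is tumour 3. NOTCH3 and CER1 are higher in all 4 tumours, whereas HES1 is far above the cultures only in tumour 3. COL18A1 is above the cultures in all 4 tumours, by widely different amounts, and is highest in tumour 3.

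Many genes of the extracellular matrix rose, at shares above the 23.9% of all genes. Of 24 basement membrane genes 11 rose and 4 fell (median 0.85), of 28 collagens 13 rose and 2 fell (median 0.83), and of 22 matrix protease and matricellular genes 10 rose and 1 fell (median 0.84). NPNT encodes nephronectin, a basement membrane ligand of integrins, and had the largest rise of all named genes. It was at 7.60, 7.82 and 8.28 CPM in cultures and 549, 620.3, 1635 and 560.3 CPM in tumours, without overlap (6.39 ± 0.40, adjusted p = 8.13e-12, limma). SPARC, a secreted collagen-binding protein, was at 8.90, 7.49 and 8.61 CPM in cultures and 352, 394, 577 and 289.7 CPM in tumours (5.39 ± 0.43, adjusted p = 5.72e-10). For both genes the lowest tumour was far above the highest culture.

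The chains of collagen IV, the network-forming collagen of basement membranes, did not move as 1 group. COL4A3 had 2, 0 and 0 reads in the cultures and 14.9, 31.8, 8.41 and 27.1 CPM in the tumours, and COL4A4, its neighbour in the genome, went from 0.436 to 1.60 CPM to 23.9 to 45.8 CPM. COL4A6 rose by 2.79 ± 0.43. COL4A1, the chain of nearly all basement membranes, was low throughout and fell, from 3.80 to 4.50 CPM to 0.515 to 1.5 CPM (-1.37 ± 0.17, adjusted p = 1.01e-06). Thus COL4A3, COL4A4 and COL4A6 rose in the tumours in which COL4A1 fell.

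Laminin and linker genes also split. LAMC1, the common laminin gamma chain, rose by 1.11 ± 0.29. HSPG2, which encodes perlecan, rose by 1.27 ± 0.21. The nidogens, which link laminin to collagen IV, fell: NID1 by 1.07 ± 0.23 and NID2 by 2.64 ± 0.35. COL18A1 was not called (adjusted p = 0.0653), with 133 to 159.8 CPM in cultures and 1227, 346, 5318 and 170.4 CPM in tumours. Its 4 tumours were all above the cultures, but they differed from each other by more than an order of magnitude. It was called with GC and length trends removed (1.89, adjusted p = 0.0439) and without tumour 4 (3.18, adjusted p = 0.0167, limma). COL18A1 was also called higher with edgeR (3.61, adjusted p = 0.0258) and with DESeq2 (3.69, adjusted p = 0.00332).

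Other matrix genes moved in both directions. COL1A1, the main chain of collagen I, was at 2.00, 1.85 and 1.96 CPM in cultures and 61.6, 90.7, 22.0 and 62.2 CPM in tumours (4.19 ± 0.36, adjusted p = 1.73e-09, limma). BGN, the proteoglycan biglycan, rose by 3.86 ± 0.44, and the collagen crosslinking enzyme LOXL2 by 3.03 ± 0.38. TIMP1, an inhibitor of matrix metalloproteinases, went from 41.6 to 46.5 CPM to 201 to 603 CPM (2.93 ± 0.29). ADAMTS1, a matrix protease, was the member of its list that fell, by 1.52 ± 0.26. LUM, the collagen-binding proteoglycan lumican, was at 193, 202 and 199.6 CPM in cultures and 33.7, 20.9, 10.1 and 39.3 CPM in tumours, all far below (-3.04 ± 0.30, adjusted p = 2.53e-08, limma). COL1A2, the partner chain of collagen I, rose by 1.92 ± 0.34, whereas COL3A1, the chain of collagen III, had at most 6 reads in any library and was not tested. COL1A1, COL1A2 and LUM are also fibroblast markers, a list whose sum was higher in each tumour than in any culture.

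These matrix counts were larger among amplicons within 1 exon. There, 6 of 9 basement membrane genes rose (median 2.59) and 6 of 9 collagens (median 2.18). Across exons 5 of 15 basement membrane genes rose (median 0.65) and 7 of 19 collagens (median 0.57), against 18.6% of all such amplicons. With GC and length trends removed, 12 basement membrane genes rose and 5 fell, and 10 collagens rose and 4 fell. Without tumour 3 the counts were 11 and 4, and 11 and 2.

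Adhesion receptors changed in composition. ITGB8, the integrin beta 8 subunit that activates latent TGF-beta, was at 5.80, 4.34 and 6.97 CPM in cultures and 113, 116, 163 and 93.9 CPM in tumours (4.18 ± 0.41, adjusted p = 2.08e-08, limma). ITGB1, the subunit shared by most matrix receptors, fell by 2.07 ± 0.69, from 235 to 252 CPM to 59.0, 98.8, 10.6 and 158 CPM. No library overlapped for either gene, although ITGB1 varied by more than an order of magnitude among tumours. In all 5 of 12 integrin genes rose and 2 fell, or 3 and 2 with GC and length trends removed. Without tumour 3 the 5 rises and no fall were called, and ITGB1 was at -1.30 (adjusted p = 0.093, limma). The cadherin genes CDH6 and CDH2, for cell-cell adhesion molecules of kidney and of neural and mesenchymal cells, rose by 3.97 ± 0.32 and 2.42 ± 0.29. CDH1, the epithelial cadherin, was not called at -0.07, but was called higher with GC and length trends removed (0.70, adjusted p = 0.0243, limma).

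**Figure D2:**
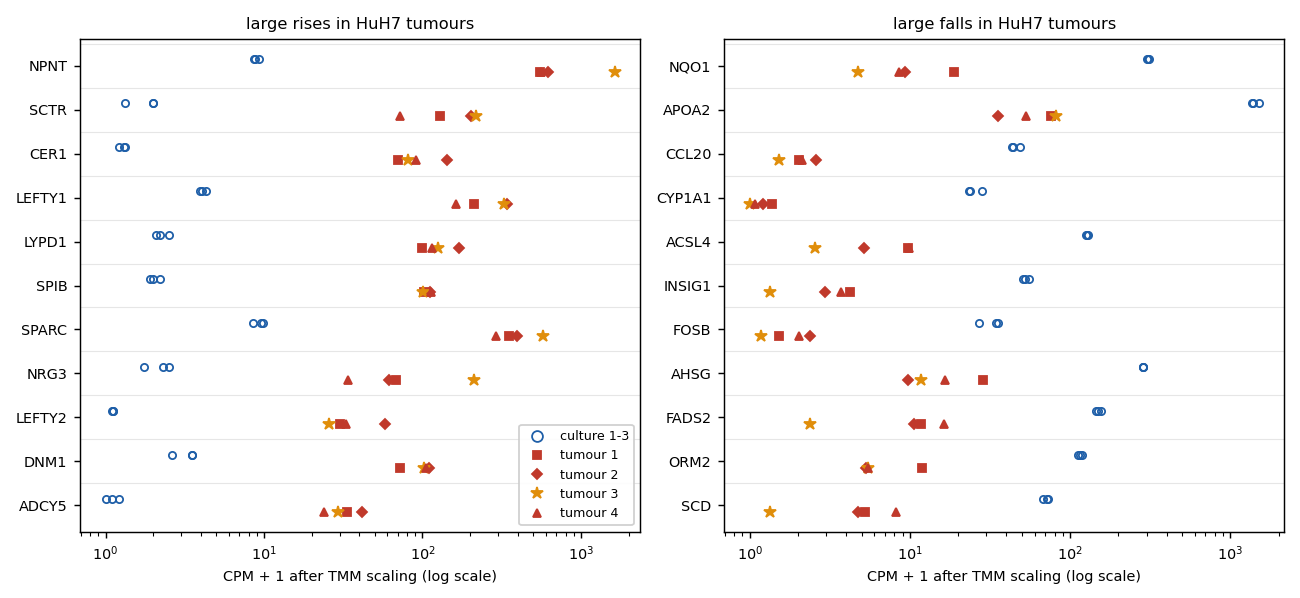
Level of 11 genes with very large rises (left) and 11 with very large falls (right), called, with a mean of 10 CPM or more and no overlap, as CPM + 1 after TMM scaling on a log axis. Open circles are cultures and filled symbols tumours, with tumour 3 as a star; NPNT lies at 7.60 to 8.28 CPM in cultures and at 549 CPM or more in tumours, and NQO1 at 299.9 CPM or more in cultures and at 17.8 CPM or less in tumours.

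Other genes with large rises came from different families. SCTR, the receptor of the hormone secretin and a member of the biliary marker list, was at 1.00, 0.326 and 0.980 CPM in cultures and 127, 202, 216 and 71.3 CPM in tumours (6.35 ± 0.49, adjusted p = 3.96e-10, limma). LYPD1, a membrane protein of the Ly6 family, rose by 5.79, SPIB, an ETS transcription factor of lymphoid cells, by 5.72, and NRG3, an ERBB4 ligand, by 5.10. DNM1, the neuronal dynamin, rose by 4.91, and ADCY5, an adenylyl cyclase, by 4.83. All 6 were higher in each tumour than in any culture. Of 6 leukocyte markers tested none rose and 1, CD14, fell (median 0.11).

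Cholesterol synthesis fell along nearly the whole pathway. Of its 19 genes tested, 16 fell and none rose, with a median of -2.07. HMGCS1, the enzyme that makes HMG-CoA, was at 1539, 1557 and 1512 CPM in cultures and 312, 109.5, 135 and 141 CPM in tumours (-3.26 ± 0.28, adjusted p = 2.96e-09, limma). EBP, the sterol isomerase, was at 447, 458 and 451 CPM in cultures and 63.2, 50.3, 30.0 and 54.3 CPM in tumours (-3.21 ± 0.31, adjusted p = 1.32e-08). In both the tumours lay far below the cultures without overlap. DHCR7, the last reductase of one branch, fell by 2.43 ± 0.33 and SQLE, the squalene epoxidase, by 1.97 ± 0.40. Among the 3 members not called were PMVK (-0.01) and TM7SF2 (0.02). PMVK, the phosphomevalonate kinase, was at 77.1 to 81.7 CPM in cultures and 80.9, 87.9, 72.8 and 73.0 CPM in tumours, which overlap.

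The fall was seen in each tumour, with list medians of -1.66, -2.10, -2.32 and -2.37. It was also seen in 4 of 5 amplicons within 1 exon and 12 of 14 across exons, and 16 of 19 fell with GC and length trends removed, without tumour 3, and with HuH7 fitted alone. Genes that control and import sterol went the same way, with 15 of 23 lower and 1 higher. Across exons 13 of 18 of them fell and none rose, and within 1 exon 2 of 5 fell and 1 rose. INSIG1, which holds SREBPs in the endoplasmic reticulum and is itself an SREBP target, was at 51.9 ± 2.19 CPM (SD, n = 3) in cultures and 3.22, 1.93, 0.343 and 2.73 CPM in tumours (-4.24 ± 0.38, adjusted p = 4.44e-09, limma). Every tumour was far below the cultures, and tumour 3 was the lowest.

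Of the transcription factors themselves, SREBF1 fell by 2.50 ± 0.52, from 149.7 to 157 CPM to 50.9, 40.5, 7.21 and 30.6 CPM. SREBF2, the main regulator of sterol genes, was not called: 958, 883 and 839 CPM in cultures and 1098, 672, 871 and 374 CPM in tumours (-0.35 ± 0.37, adjusted p = 0.469, limma). It was called lower with GC and length trends removed (-1.11, adjusted p = 0.000903) and with total counts alone (-0.62, adjusted p = 0.0436). The sterol exporter gene ABCA1 fell by 1.86 ± 0.47 and ABCG1 by 1.78, whereas ABCG8, a subunit of the biliary sterol exporter, was the 1 gene of this list that rose (1.89 ± 0.24). Lists of sterol synthesis and of sterol control thus fell together, while ABCG8, low in all libraries at 1.63 to 11.8 CPM, went the other way.

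The promoters of 3 of these enzymes are shown because a shared motif stands in nearly all of them. CCAAT is the box bound by the factor NF-Y, which is known to act beside SREBPs. Searched on both strands in the 250 bases before the start (CCAAT or ATTGG), it was found for 12 of the 14 tested synthesis genes with a RefSeq promoter entry, and in 32.0% of 35116 promoters. It was also found for 11 of 17 genes of fatty acid synthesis and 10 of 19 NRF2 targets. The sterol element, searched as TCACNCCAC on both strands, was in none of the 14 and in 0.88% of all promoters. A gene was counted when any of its promoter entries held the motif, whereas the share of all promoters is per entry. Genes with several entries have more chances of a match, so the counts of genes and the shares of promoters are not alike. Below are the 250 bases before the start of HMGCS1 (chr5:43313413-43313662, minus strand), EBP (chrX:48521558-48521807, plus strand) and DHCR7 (chr11:71448394-71448643, minus strand), RefSeq, GRCh38.p14, with the box in capitals.
HMGCS1: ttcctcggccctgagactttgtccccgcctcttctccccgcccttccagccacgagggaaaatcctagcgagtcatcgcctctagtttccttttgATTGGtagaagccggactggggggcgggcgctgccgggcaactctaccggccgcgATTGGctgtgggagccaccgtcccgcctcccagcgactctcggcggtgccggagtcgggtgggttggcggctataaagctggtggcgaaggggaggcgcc
EBP: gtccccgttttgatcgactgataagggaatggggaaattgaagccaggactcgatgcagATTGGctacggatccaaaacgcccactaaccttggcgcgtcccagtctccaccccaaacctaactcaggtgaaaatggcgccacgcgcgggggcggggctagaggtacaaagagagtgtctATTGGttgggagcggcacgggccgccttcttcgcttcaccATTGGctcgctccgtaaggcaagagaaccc
DHCR7: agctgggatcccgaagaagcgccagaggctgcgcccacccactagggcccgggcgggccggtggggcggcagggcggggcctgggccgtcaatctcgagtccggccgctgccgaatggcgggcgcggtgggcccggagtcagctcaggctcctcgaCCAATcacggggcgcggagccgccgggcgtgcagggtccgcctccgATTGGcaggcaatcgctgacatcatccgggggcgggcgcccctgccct
HMGCS1 holds 2 boxes, EBP 3 and DHCR7 2. TM7SF2, which was not called, also holds the box, so it does not separate members that fell from those that were not called. A match is a run of letters and not a measured site.

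Fatty acid synthesis and desaturation fell too, with 13 of 18 genes lower and 2 higher (median -1.87). FASN, the fatty acid synthase, had the most reads of all genes in the cultures, at 13170, 13050 and 12500 CPM, and was at 4253, 1667, 1879 and 1145 CPM in tumours (-2.71 ± 0.37, adjusted p = 3.13e-06, limma). SCD, which makes monounsaturated fatty acids, was at 66.4, 70.9 and 71.7 CPM in cultures and 4.25, 3.76, 0.343 and 7.15 CPM in tumours (-4.12 ± 0.47). FADS2, which desaturates polyunsaturated fatty acids, fell by 4.17 ± 0.50 and ACSL3, an acyl-CoA synthetase, by 3.37 ± 0.34. All 4 genes were lower in each tumour than in any culture. The 2 that rose were ACACB, the mitochondrial acetyl-CoA carboxylase (1.18 ± 0.16), and FADS3 (0.91 ± 0.20). Of the 15 amplicons across exons 13 fell and 1 rose. None of the 3 within 1 exon fell.

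Enzymes of fatty acid breakdown were also lower more often than higher. In the list of oxidation and ketogenesis 11 of 22 genes fell and 2 rose (median -0.68), and 9 fell and 3 rose with GC and length trends removed. Across exons 11 of 18 fell and none rose (median -0.74), and of 4 within 1 exon none fell and 2 rose (median 0.02).

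**Figure D3:**
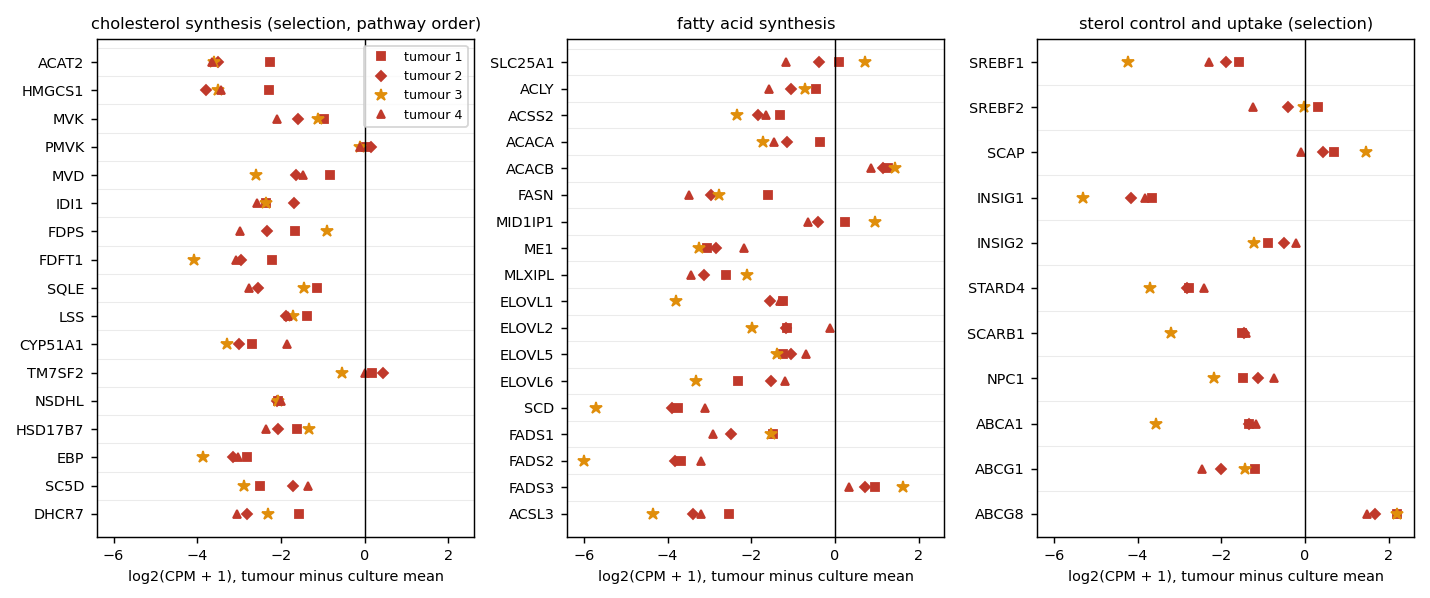
Difference of each HuH7 tumour from the mean of the 3 cultures in log2(CPM + 1), for genes of cholesterol synthesis, fatty acid synthesis, and sterol control and uptake; the line at 0 is the culture mean and the star is tumour 3. HMGCS1, SCD and INSIG1 lie left of the line in all 4 tumours, whereas PMVK and TM7SF2 lie near it.

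Targets of NRF2, the transcription factor of the oxidative stress response, were lower as a list: 18 of 26 fell and 1 rose (median -1.52). NQO1, a quinone reductase and standard readout of NRF2, had the largest fall of all named genes. It was at 306, 299.9 and 308 CPM in cultures and 17.8, 8.37, 3.78 and 7.58 CPM in tumours, all far below (-5.05 ± 0.38, adjusted p = 1.99e-10, limma). AKR1C2, an aldo-keto reductase, fell by 3.40 ± 0.35, and GCLM, the modifier subunit for glutathione synthesis, by 2.58 ± 0.30. AKR1C2 shares near-identical copies with other members of its family, so its level is uncertain. ABCC3, an efflux pump, was the 1 member that rose, by 1.31 ± 0.19.

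HMOX1, the haem oxygenase, was not called, with 124 to 133 CPM in cultures and 233, 131, 362 and 70.2 CPM in tumours on both sides. NFE2L2, which encodes NRF2, fell by 1.03 ± 0.17 (682 to 720.1 CPM to 258 to 504 CPM), and KEAP1, its inhibitor, was not called at -0.24 ± 0.15. The fall of the list lay mainly in amplicons across exons, where 16 of 19 fell (median -1.79). Within 1 exon 2 of 7 fell and 1 rose (median -0.24). With GC and length trends removed, 19 fell and 1 rose. CYP1A1, a cytochrome P450 induced through the aryl hydrocarbon receptor, was at 27.1, 22.7 and 22.4 CPM in cultures and had 3 reads or fewer in each tumour. The ratio of its levels was 139.6-fold lower in tumours, with a counting interval of 63.8 to 382.

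Stress and growth programmes of cultured cells were mostly lower. Of 24 genes of ATF4 and the amino acid response 14 fell and 2 rose (median -0.95). Across exons 11 of 14 fell and none rose, and within 1 exon 3 of 10 fell and 2 rose. TRIB3, a pseudokinase induced by ATF4, fell by 2.62 ± 0.28, and DDIT3, the stress factor CHOP, rose by 2.11 ± 0.46, highest in tumour 3 at 164 CPM. Of 19 aminoacyl-tRNA synthetases 12 fell (median -0.99), and of 16 serine and folate enzymes 11 fell (median -0.84), PHGDH among them (-1.87 ± 0.67, and -1.31 without tumour 3, which was not called, adjusted p = 0.12, limma). None rose in either list. Without tumour 3, 8 synthetases and 8 serine and folate enzymes fell. With all tumours, 11 of 16 synthetases and 8 of 12 serine and folate enzymes across exons fell, and 1 of 3 and 3 of 4 within 1 exon.

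Large protein machines moved the same way. Genes of cytosolic ribosomal proteins fell in 36 of 81 cases (median -0.65), of oxidative phosphorylation in 39 of 73 (median -0.58) and of the proteasome, which degrades proteins, in 23 of 37 (median -1.0). Without tumour 3 the falls numbered 22, 29 and 21. With all tumours, 34 of 70, 35 of 58 and 21 of 34 amplicons across exons fell, and 2 of 11, 4 of 14 and 2 of 3 within 1 exon. Ribosomal protein genes have many near-identical pseudogenes, and their separate levels are uncertain.

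Heat shock genes fell in 10 of 14 cases and 1 rose (median -1.03). All 10 amplicons across exons fell (median -1.95), and of 4 within 1 exon none fell and 1 rose (median -0.11). HSPA8, the constitutive HSP70, ranged over 11.7, 32.9, 1.20 and 92.7 CPM in tumours against 135 to 149 CPM in cultures, so its fall of 3.04 ± 1.01 was wide in error and was not called without tumour 3 (-2.05, adjusted p = 0.0926, limma). HSPB1, a small heat shock protein, was the one that rose, by 1.33 ± 0.32. This list has the lowest GC content of those named here (median 47.3%), and with GC and length trends removed 8 fell and 1 rose.

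Of 30 mitosis genes 15 fell and none rose (median -0.82), and of 30 DNA replication genes 20 fell and none rose (median -0.92). CDK1, the mitotic kinase, was at 15.6, 13.2 and 17.4 CPM in cultures and 1.16, 2.04, 0.172 and 6.81 CPM in tumours (-2.55 ± 0.54, adjusted p = 0.000589, limma). TOP2A, a topoisomerase of dividing cells, was at 490.1, 509 and 469.8 CPM in cultures and 299.9, 279, 227 and 262 CPM in tumours (-0.88 ± 0.12). Both were lower in all tumours, but by very different amounts. MKI67, the Ki-67 antigen, was not called: 129 to 132 CPM in cultures, and 59.4, 84.5, 9.27 and 150.3 CPM in tumours. Tumour 4 was above the cultures for MKI67 and tumour 3 far below. Without tumour 4 it was called lower (-1.80, adjusted p = 0.0201, limma). MCM2, a helicase subunit of replication, was not called at -0.23 ± 0.35, but was called lower with GC and length trends removed (-0.78, adjusted p = 0.00668). Mitosis genes fell only where the amplicon crosses exons (15 of 23, median -1.08), and none of 7 within 1 exon was called (median -0.22). Replication genes fell in both kinds, 7 of 8 and 13 of 22. Without tumour 3, 11 mitosis and 18 replication genes fell.

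**Figure D4:**
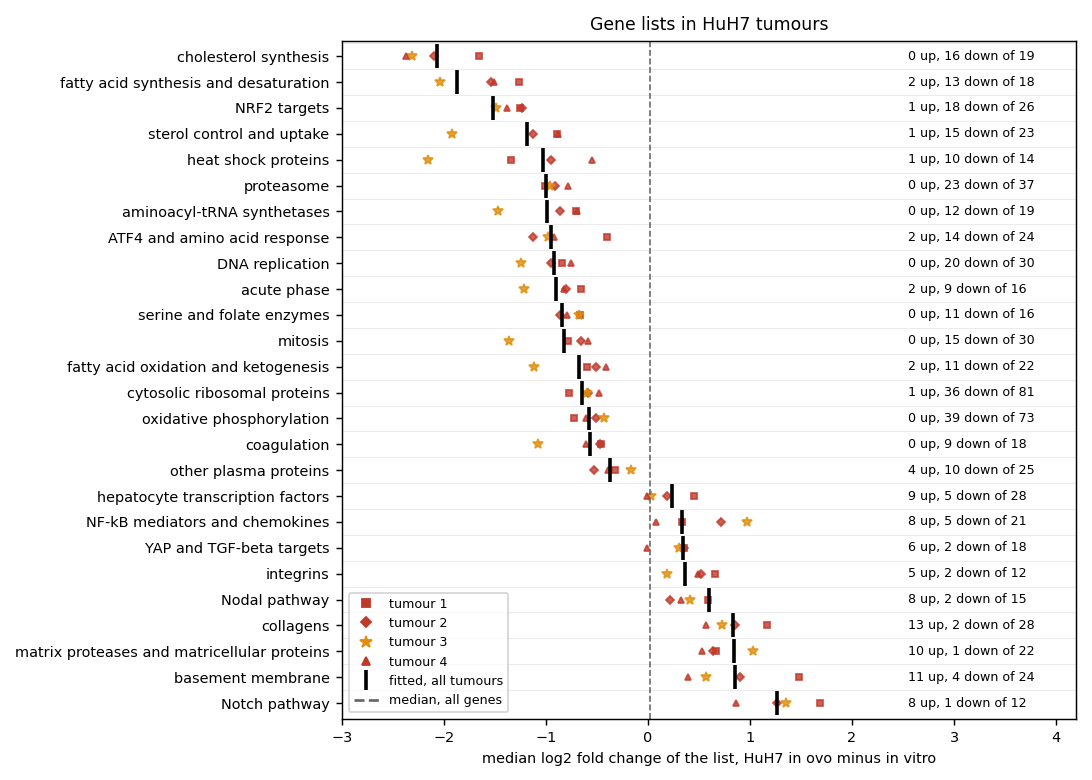
Median log2 fold change of 26 gene lists in HuH7 tumours, with coloured symbols for each tumour against the culture mean, a black tick for the fitted median and a dashed line for the median of all genes, 0.02. The text at right gives the called genes; the tumours of cholesterol synthesis lie between -1.66 and -2.37 and those of the Notch pathway between 0.86 and 1.69.

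Many genes of plasma proteins, the defining products of hepatocytes, fell in HuH7 tumours. AHSG, fetuin A, was at 286 CPM in each culture and at 27.8, 8.69, 10.8 and 15.5 CPM in tumours (-4.23 ± 0.28, adjusted p = 2.61e-11, limma). APOA2, a protein of HDL, was at 1393, 1508 and 1365 CPM in cultures and 75.3, 34.3, 81.0 and 51.7 CPM in tumours (-4.61 ± 0.31). AFP, the fetal albumin and liver tumour marker, was at 1852, 1886 and 1839 CPM in cultures and 569.5, 258, 382 and 282 CPM in tumours (-2.39 ± 0.25). For all 3 the tumours lay below the cultures without overlap.

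ALB, albumin, was at 54.7 to 60.6 CPM in cultures and 5.02, 8.16, 0.858 and 19.2 CPM in tumours (-3.13 ± 0.60, adjusted p = 0.000224). RBP4, the retinol carrier, fell by 3.90 ± 0.29, the acute phase protein gene ORM1 by 3.76 ± 0.37, and APOB, the protein of VLDL and LDL, by 2.84 ± 0.31. Reads of ORM1 and ORM2, which are near-identical copies, could be exchanged. Rises in the list of other plasma proteins were IGFBP2 (3.12 ± 0.30), AGT (1.34), ITIH4 (1.20) and VTN, vitronectin (1.13 ± 0.27). Apolipoprotein genes moved both ways, with 6 of 14 lower and 2 higher (median 0.01, mean -0.53). APOD, a lipocalin, rose by 4.09 ± 0.32, and APOA1, the main protein of HDL, was not called (0.80 ± 0.37, adjusted p = 0.0856, limma), although its tumours, at 250.1 to 664 CPM, were all above the cultures at 210.4 to 225 CPM. Without tumour 4 APOA1 was called higher (1.01, adjusted p = 0.035, limma). In counts, 10 of 25 other plasma protein genes fell and 4 rose, 9 of 18 coagulation genes fell and none rose, and 9 of 16 acute phase genes fell and 2 rose. Their medians were -0.37, -0.57 and -0.90. With HuH7 libraries alone fewer members passed the filter. These medians were then -1.08 over 18 genes, -0.64 over 16 and -1.09 over 14, and that of apolipoproteins was -1.31 over 10. With all libraries, 7 of 15, 6 of 11 and 5 of 8 amplicons of the same 3 lists across exons fell, and 3, none and 2 rose. Within 1 exon 3 of 10, 3 of 7 and 4 of 8 fell, and 1, none and none rose. With GC and length trends removed 12, 8 and 9 fell, and 4, none and 2 rose. The apolipoprotein median was then -0.45, with 6 lower and 3 higher.

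Transcription factors of the hepatocyte did not fall with them. HNF4A, the master regulator of hepatocyte genes, was at 899.9, 924 and 910.2 CPM in cultures and 1385, 1186, 922 and 845 CPM in tumours, which overlap (0.22 ± 0.31, adjusted p = 0.589). Of 28 factors 9 rose and 5 fell (median 0.23, and -0.01 with total counts alone), and 7 rose and 8 fell with GC and length trends removed. CEBPD rose by 4.29 ± 0.63, with 21.5 to 26.0 CPM in cultures and 499.5, 380.3, 1822 and 168 CPM in tumours. ONECUT1, the factor HNF6 of liver and bile duct development, rose by 3.16 ± 0.55 and GATA6 by 2.00. NR1H4, the bile acid receptor FXR, fell by 3.79 ± 0.30, from 26.4 to 28.8 CPM to 0.515 to 1.5 CPM.

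The difference between the HuH7 response and the mean response of the other 3 lines was tested in the same fit. It was above zero for 1548 genes (11.8%) and below zero for 1003 (7.66%), or 2149 and 651 with total counts alone. All 16 cholesterol synthesis genes that fell were below the other lines, whose list medians were -0.27 in HepG2, 0.09 in Hep3B and 0.26 in PLC/PRF/5. For HMGCS1 the difference was -3.18 (adjusted p = 6.53e-08, limma). Of the sterol control genes 11 of 23 were below, and of the fatty acid synthesis genes 9 of 18 below and 1 above. Replication genes were below in 15 of 30 cases, mitosis genes in 4 of 30, and NRF2 targets in 10 of 26. The replication medians were 0.5 in HepG2, -0.63 in Hep3B and -0.4 in PLC/PRF/5, and those of mitosis were 0.76, -0.95 and -0.33. In Hep3B 16 replication and 18 mitosis genes fell, whereas in HepG2 14 and 16 rose and none fell. For the NRF2 list the medians of HepG2, Hep3B and PLC/PRF/5 were -1.13, 0.32 and -1.09.

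Genes of matrix and signalling were above the other lines in 12 of 22 matrix protease and matricellular genes, 10 of 28 collagens, 9 of 24 basement membrane genes, 6 of 12 Notch genes and 12 of 18 YAP and TGF-beta target genes. Below the other lines were 1, 3 and 5 genes of the first 3 of these lists, and none of the last 2. The basement membrane list thus split both ways, beside 7.66% of all genes that were below. Of the 18 YAP and TGF-beta targets, 6 rose and 2 fell in HuH7 (median 0.34, and -0.01 with GC and length trends removed). In HepG2 9 fell and none rose, in Hep3B 9 fell and 3 rose, and in PLC/PRF/5 4 fell and 1 rose. CER1 had the largest difference (7.91, adjusted p = 1.45e-13): its log2 fold changes were -0.21 in HepG2, -5.27 in Hep3B and 0.30 in PLC/PRF/5. With edgeR on the recovered reads the differences of CER1 and SCTR were not called (9.0 and 4.67, adjusted p = 1). In Hep3B its mean went from 138 ± 4.40 CPM (SD, n = 3) in cultures to 3.05 ± 2.12 CPM (n = 4) in tumours. LYPD1 (6.13), CSDC2, a cold shock domain protein (5.84), SCTR (5.75), SOCS2, an inhibitor of cytokine signalling (4.93), PTHLH (4.85) and GPC4, a cell surface glypican (4.78), followed. These 7 genes were also above HepG2 and Hep3B alone, with differences of 5.24 to 8.92.

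Plasma protein genes had the differences furthest below: AFP (-7.25), AHSG (-6.15), APOA2 (-5.57), TF (-5.52), A2M (-5.20) and APOB (-5.12). In number, 16 of 25 other plasma protein genes, 14 of 18 coagulation genes and 13 of 16 acute phase genes were below. AFP fell in HuH7, at -2.39, and rose in HepG2 (1.58), Hep3B (6.67) and PLC/PRF/5 (6.35). TF, transferrin, fell in HuH7 by 2.03 ± 0.32 and rose by 1.45, 2.92 and 6.08 in the others. Altogether 16 genes fell in HuH7 and rose in each other line, FGA, FGB and SERPINC1 of the clotting system among them. FGA was not called without tumour 3 (-0.43, adjusted p = 0.192, limma), nor without any 1 culture (adjusted p = 0.0777 to 0.092). The reverse was seen for 5 genes, ENAH, PLCD3, NFKBIZ, LPAR2 and KIF3C. For 2 of these the conditions overlapped, with tumour 3 among the cultures: PLCD3 at 7.21 CPM beside 6.08 to 7.95 CPM, and KIF3C at 3.60 CPM beside 3.60 to 4.34 CPM. PLCD3 was not called with total counts alone (0.68, adjusted p = 0.14), with HuH7 alone (adjusted p = 0.0911) or without culture 2 (adjusted p = 0.0703, limma). KIF3C was not called with total counts alone (0.78, adjusted p = 0.121), with a pseudocount of 0.25 CPM (adjusted p = 0.0513), with HuH7 alone (adjusted p = 0.163), or without culture 1, tumour 2 or tumour 4 (adjusted p = 0.0584 to 0.0676, limma).

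A measured property of the other tumours stands beside these values, and its part in them was not tested. The 9 transcripts typical of HepG2 stood in PLC/PRF/5 tumours at 0.526 to 1.31% of their HepG2 tumour level and in Hep3B tumours at 0.313 to 1.11%, with none in cultures of either line. The 4 transcripts typical of HuH7 stood in Hep3B tumours at 0.24 to 3.9% of their HuH7 tumour level, and in Hep3B cultures at 0.0642 to 0.11%. AFP in PLC/PRF/5 was at 0.844 ± 0.449 CPM in cultures and 153 ± 57.1 CPM in tumours, when it was at 23520 CPM in HepG2 tumours. TF was at 2.83 and 272 CPM in PLC/PRF/5 and at 44770 CPM in HepG2 tumours. Against HepG2 and Hep3B alone the differences were -6.51 for AFP, -4.22 for TF, -3.42 for APOB and -4.80 for AHSG, all called, and 1067 genes in all were below and 1603 above. The fold changes within HuH7 use the other lines' libraries only for the spread, the shared scaling and the choice of genes tested. With HuH7 libraries alone 11371 genes were tested.

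**Figure D5:**
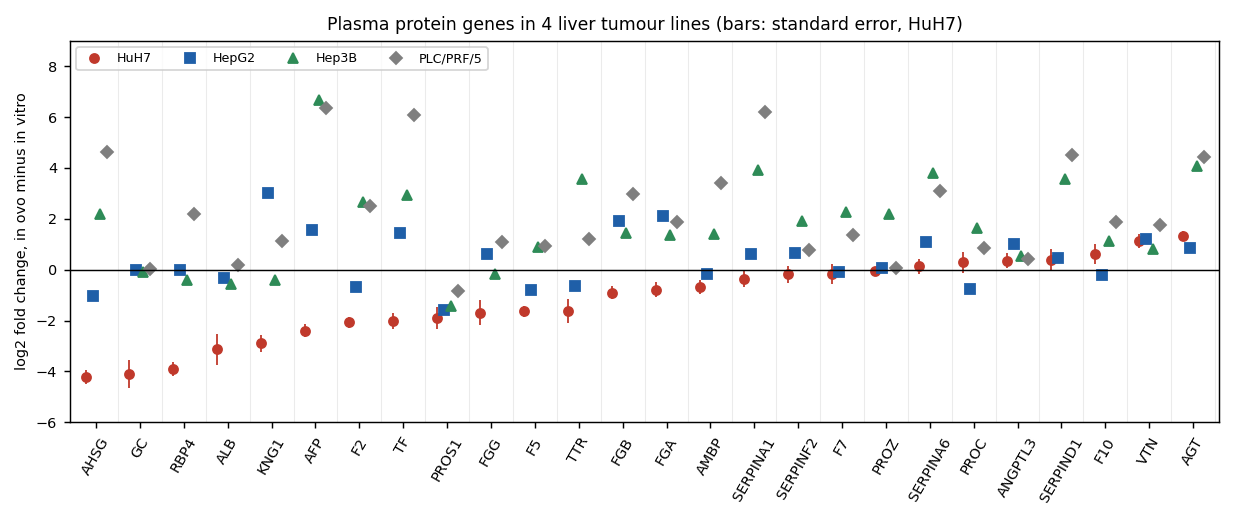
Log2 fold change, tumours minus cultures, of the 26 genes of the coagulation and other plasma protein lists with a mean of 10 CPM or more in HuH7, in HuH7 (circles, with the standard error as bars) and in the other 3 lines. In HuH7 19 of the 26 lie below 0, with 15 called lower and 2 called higher (VTN and AGT), whereas AFP and TF lie above 0 in the other 3 lines. Transcripts typical of HepG2 were read at low level in PLC/PRF/5 tumours, and their part in the plotted values was not tested.

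Inflammatory, metal and immediate early genes showed single large changes within lists that moved both ways. Of 21 NF-kB mediators and chemokines 8 rose and 5 fell (median 0.33). TNFAIP3, the NF-kB feedback inhibitor A20, was at 24.4, 23.0 and 16.3 CPM in cultures and 189.8, 138, 249 and 87.4 CPM in tumours (2.82 ± 0.34, adjusted p = 4.63e-07, limma). CCL20, a chemokine, went the other way, from 42.3, 42.8 and 47.4 CPM to 1.03, 1.61, 0.515 and 1.11 CPM (-4.48 ± 0.26). Neither overlapped between conditions. Among immediate early genes and AP-1 factors (5 of 24 higher, 3 lower, median 0.21, and -0.04 with total counts alone) FOSL2 rose by 3.47 ± 0.33 and FOSB fell by 4.23 ± 0.23.

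Metallothioneins, which bind zinc and copper, rose: MT1E by 3.62 ± 0.57 and MT2A by 2.52 ± 0.58. Tumour 3 was far above the others for both, at 215 CPM for MT1E against 18 to 49.1 CPM, and cultures were at 3.16 to 3.80 CPM. Metallothionein genes are near-identical copies, so their separate levels are uncertain. Hypoxia targets rose in 6 of 24 cases and fell in 3, with NDRG1, a stress protein induced by low oxygen, at 36.9 to 39.3 CPM in cultures and 332, 133, 298 and 87.5 CPM in tumours (2.25 ± 0.45). SLC2A1, the glucose transporter of that response, was not called at -0.22. In HuH7 tumours as a list, hypoxia targets were thus called at about the rate of all genes.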

How the data were processed

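RNA of 28 libraries was read with a targeted kit of 1 amplicon per gene. The authors deposited a signal value per gene and library, scaled to a total of 500000 in each library, per the table itself. The submitters' processing notes name the genome build hg38, while the aligner was not given in the sources used here, nor was the counter. In the HuH7 libraries every value was a whole multiple, within a tolerance of 0.01 reads, of what 1 read is worth (99.9% or more in each of the 28 libraries), so reads were recovered from the deposited signal. 1 damaged cell was filled from the total of its library, and 37 symbols that were turned into dates or were duplicated were named from the kit's own name.

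Libraries were grouped by line and condition from their labels. Genes were kept by edgeR 4.0.16 filterByExpr (13100 of 18961), scaled by TMM, and tested on log2(CPM + 1) with limma 3.58.1 (trend, R 4.3.3) in 1 fit of 8 groups, with 20 residual degrees of freedom and Benjamini-Hochberg adjustment. The contrasts were HuH7 in ovo minus in vitro, and that response minus the mean response of the other 3 lines. The fit was tested on simulated data. Alternatives were edgeR and DESeq2 1.42.0 on the recovered reads, other scalings, pseudocounts and filters, HuH7 alone, a replicate block, removal of GC and length trends (splines with 5 degrees of freedom), and each HuH7 library left out.

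Members and gene lists were chosen with earlier results of these data known. The rule for named genes took the 12 highest and 12 lowest changes among called genes with a mean of 10 CPM or more and no overlap, in each list up to 6 called members of that level and any member against the majority, the 8 highest and 8 lowest differences from the other lines, and 19 fixed genes. Genes outside the rule were chosen after their values were seen: TDGF1, DLL4, JAG2, HES1, COL18A1, COL4A1, LAMC1, HSPG2, CDH1, SQLE, PMVK, TM7SF2, ABCG1, ABCG8, GCLM, HMOX1, CDK1, TOP2A, MCM2, IGFBP2, ITIH4, SERPINC1, SLC2A1, ENAH, PLCD3, NFKBIZ, LPAR2, KIF3C and marker genes. Some genes are not reported here. Standard errors and p-values cover the spread between libraries, and ratios of reads carry counting error only.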

Additional observations from a re-analysis of the deposited data

Results flagged for a closer look

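Among 127 genes looked at, 1 HuH7 tumour stood far from the other 3 for 11 genes, by a gap to the nearest that was above Dixon's critical share of the range; chance flags about 1 in 20 groups. Tumour 3 stood apart for 7. It was high for HES1 (672 CPM), MT1E (215 CPM), MT2A (192 CPM), NPNT (1635 CPM) and NRARP (76.4 CPM). It was low for the sterol exporter gene ABCA1 (6.52 CPM against 34.3 to 38.8 CPM) and for PLCD3 (7.21 CPM against 17.1 to 18.4 CPM). Tumour 1 stood apart for 4, all genes lower in tumours for which it was the nearest to the cultures: HMGCS1 (312 CPM), NID1 (752 CPM), ORM2 (10.9 CPM) and TRIB3 (64.3 CPM). Tumours 2 and 4 stood apart for none of these genes.

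The HuH7 response differed from the mean of the other lines, by the fitted difference (limma), for CER1 (7.91), LYPD1 (6.13), CSDC2 (5.84), SCTR (5.75), SOCS2 (4.93), PTHLH (4.85) and GPC4 (4.78) above, and for AFP (-7.25), AHSG (-6.15), APOA2 (-5.57), TF (-5.52), A2M (-5.20), APOB (-5.12) and the matrix protein gene THBS4 (-4.63) below.

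Olfactory receptor amplicons, of which 12 of 391 had enough reads to be tested, had a read in 26.0% of cases in HuH7 tumours and 6.57% in cultures.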

How the results depend on the processing

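Of 112 called genes named here, 99 kept their call under every alternative that was run on them, and 13 lost it under 1 or more. The main counts of 3133 higher and 2554 lower became 2052 and 1680 with HuH7 libraries alone, an alternative with fewer samples. With a pseudocount of 5 CPM, changes of at least 2-fold numbered 1269 higher and 731 lower. Under scaling by total counts alone 651 genes were below the other lines, and with edgeR on the recovered reads 856 were above. The cause of these 2 shifts was not tested. Leaving out each HuH7 library gave 2587 to 3522 genes higher and 1717 to 3160 lower, 1685 to 2347 and 874 to 2088 by at least 2-fold, and the lowest of these, 874, came without tumour 3. CDH1 turned from -0.07 to 0.70 with GC and length trends removed. The median of all genes was 0.13 with DESeq2 and -0.13 with total counts alone. The replicate block gave 3563 higher and 3193 lower genes, close to the counts without tumour 4, which has no culture of its number. Deviations of same-numbered libraries from their group means had correlations of 0.1, 0.029 and -0.097, and those of other pairs -0.173 to 0.154. With so few libraries, centred within each group, these values cannot decide whether the numbers pair them. The difference from HepG2 and Hep3B alone was chosen after seeing the data. Depth limits genes near 3 reads, where a change could not be seen.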
